A study of Mus musculus with 4 samples.

Results

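The 8 genes described here, Cdx1, Cdx2, Hnf4a, Hnf4g, Elf3, Klf5, Gata6 and Vdr, encode transcription factors that are best known from the epithelium lining the gut. They were taken by name from the 12393 genes that the array platform's annotation names with a single symbol, and all 16 of their probe sets, out of 22626 without controls, were used. Hnf4a had 4 probe sets, Cdx2, Hnf4g, Klf5, Gata6 and Vdr had 2 each, and Cdx1 and Elf3 had 1 each. The RNA came from tumour-associated macrophages sorted by flow cytometry from collagenase-digested tumours of GIST mice, a model of gastrointestinal stromal tumour, which arises in the wall of the gut. Mice of the vehicle group were controls, and mice of the imatinib group drank water with 600 mg/L imatinib, an inhibitor of Kit and related kinases; treatment lasted 2 weeks. Sorted cells of the 8 mice in a group were combined into 1 pool, and 2 Affymetrix 3' expression arrays were run per group from 200 ng of total RNA each. The labels call the animals GIST mice and give no genotype, strain, sex or age. Since the design text describes duplicates of a pool while the titles name biological replicates, the p-values below rest on array-to-array spread, which may be technical, and say nothing of the spread between mice.

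Cdx1 and Cdx2 are homeobox factors that set intestinal identity in the epithelium and switch on genes of digestion and barrier. Hnf4a and Hnf4g are nuclear receptors of lipid handling and enterocyte differentiation, Elf3 is an ETS factor of epithelial differentiation, and Klf5 is a zinc-finger factor of dividing crypt cells. Gata6 is a zinc-finger factor of crypt and enterocyte, also known from peritoneal macrophages and from smooth muscle, and Vdr is the receptor for active vitamin D, which acts in gut epithelium and also in some macrophages. Cdx and Hnf4 factors are held to be products of epithelial cells rather than of macrophages, so their signal in a macrophage sort has to be read beside the markers of both cell types.

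On these arrays a signal is the MAS5 intensity of a probe set, on a linear scale that the authors had brought to a common trimmed mean of 500.3 on each array. Signals of different probe sets are not comparable as levels, so each gene is compared only with itself between groups. Markers of the labelled cell type were present: all 17 macrophage identity genes on the array passed the signal filter, with a summed signal of 161842 and 162717 for vehicle against 203231 and 194432 for imatinib. Epithelial markers were present too. Of 22 on the array, 20 passed the filter, and their summed signal was 44809.6 and 46418 with vehicle against 10523 and 10486 with imatinib; Prss8 and Marveld3 lay below the filter and none was at 0. For Gapdh, the 3'/5' control ratio, which grows as RNA is degraded, was 2.91 and 2.76 on vehicle arrays against 2.34 and 2.09 on imatinib arrays. The parts that the share of epithelial cells, the RNA integrity and the treatment play in the results below were not tested separately. In pooled RNA, fewer cells of a type and less RNA per cell cannot be told apart.

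The 8 factors had lower signals with imatinib. On the brightest probe set of each of the 8 genes both imatinib arrays lay below both vehicle arrays, which was so for 30.1% of the tested genes. The same held for 15 of the 16 probe sets, against 27.7% of all probe sets. Differences are given as imatinib minus vehicle on a log2(signal + 32) scale, which understates changes of dim genes, and were tested with limma over all genes with Benjamini-Hochberg adjustment at 0.05. A gene entered the test through its brightest probe set if its mean over the 4 arrays reached the 40th percentile of all probe sets, a signal of 82.9. Of the 8 factors 7 passed that filter and all 7 were called lower, where 8.85% of 8156 tested genes were called lower, 6.74% were called higher, and the median difference was -0.02. With array medians set equal, 1044 genes were higher and 506 lower, and with macrophage markers set equal 100 were higher and 5165 lower, against 550 and 722 as deposited. For Cdx1, Gata6 and Vdr the mean of the imatinib arrays was under the filter, so that they entered only through the vehicle arrays and had to differ; the count of 7 is therefore no support for a common change. Cdx2, Hnf4a, Elf3 and Klf5 were above the filter in both groups. Genes of the lists below with a mean under the filter in 1 group have the same limit, as they entered only through the other group. Cdx1, with a mean signal of 83.2, was the factor just inside the filter, and Hnf4g, with a mean of 37.6, was the only one outside. When all 12393 genes were tested without a filter, 6 of the 8 factors were lower and none was higher, with 4.37% of genes called lower and 2.87% higher; Gata6 (adjusted p = 0.11) and Hnf4g (adjusted p = 0.60) did not pass. Over all 22626 probe sets without a filter, 8 of the 16 were lower and none higher, with 2.81% called lower and 1.92% higher.

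**Figure D1:**
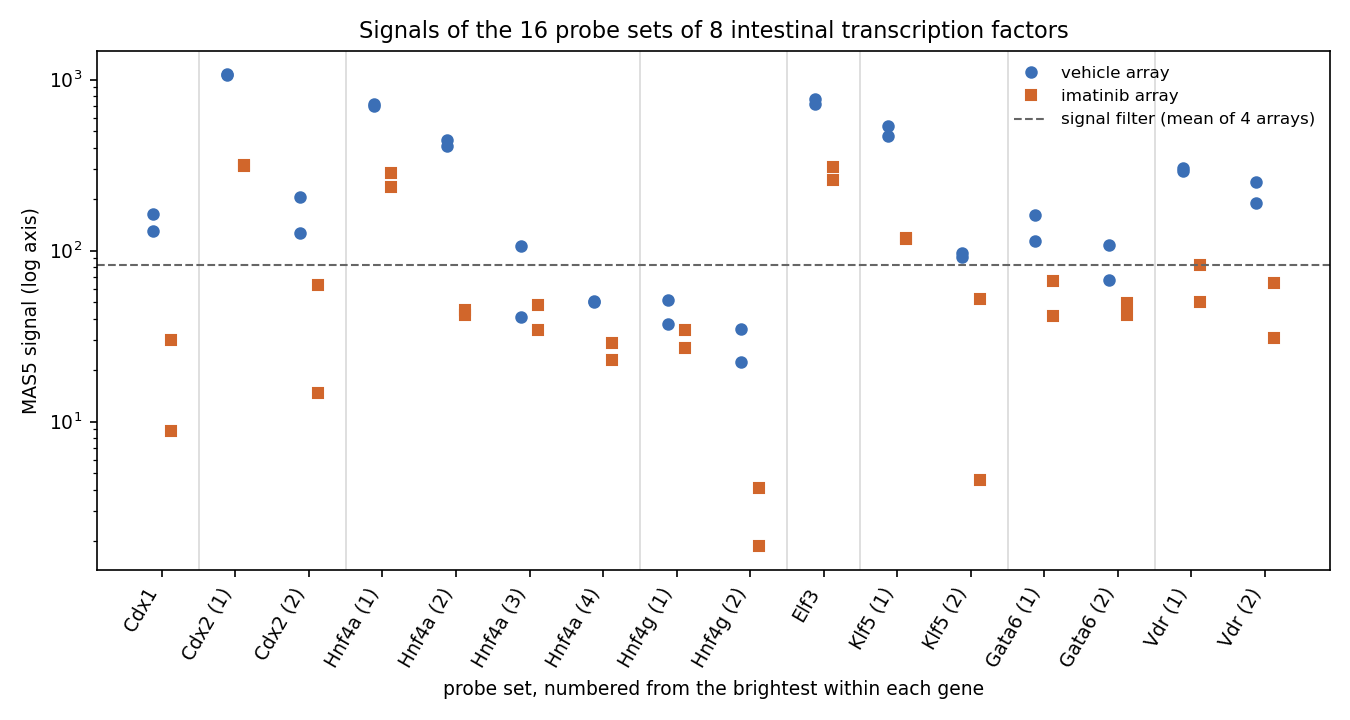
MAS5 signal on a log axis for each of the 16 probe sets, with the 2 vehicle arrays as circles, the 2 imatinib arrays as squares and the signal filter of 82.9 as a dashed line. Imatinib arrays lie below both vehicle arrays for 15 probe sets, and the groups overlap for the 3rd Hnf4a probe set.

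The caudal-type homeobox genes fell in both cases. Cdx2, the factor that keeps intestinal identity, had signals of 1074 and 1062 for vehicle against 318 and 314 for imatinib for its bright probe set. The duplicate arrays of each group lay far closer to each other than to the other group, and the mean signal was 3.38 times as high with vehicle (log2 difference -1.66 ± 0.12, SE, n = 2 per group, adjusted p = 4.96e-06). Its dimmer probe set read 126 and 206 with vehicle against 14.6 and 63.2 with imatinib. That probe set differed by -1.54 ± 0.38 with a far wider spread (adjusted p = 0.021 over all probe sets, 0.11 without the filter). Its imatinib mean of 38.9 was under the filter, so it entered only through the vehicle arrays. It therefore had to differ and adds no support. Cdx1, a close relative that acts with Cdx2, had signals of 131 and 163 with vehicle against 8.87 and 30.2 with imatinib. Both imatinib arrays were deep in the dim range, where MAS5 values scatter, and the groups did not overlap. Its log2 difference was -1.82 ± 0.34 (adjusted p = 0.0043), and no fold is given because it would rest on which of the 2 dim imatinib values is used. On a log2(signal + 1) scale it was -3.07, and on a log2(signal + 100) scale -1.05, so that the size of this fall is set largely by the offset. Without either vehicle array Cdx1 dropped under the filter and had no test.

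Hnf4a, the nuclear receptor of enterocyte and colonocyte differentiation, fell on both of its bright probe sets. The brightest read 697 and 722 with vehicle against 235 and 286 with imatinib, a signal 2.72 times as high with vehicle (-1.35 ± 0.14, adjusted p = 9.3e-05). The second read 411 and 446 with vehicle against 41.8 and 45.3 with imatinib, 9.84 times as high with vehicle (-2.61 ± 0.20, adjusted p = 1.3e-05 over all probe sets, 0.0021 without the filter). Its imatinib mean of 43.5 was under the filter, so it entered only through the vehicle arrays and had to differ. That fold rests on dim imatinib values. On both probe sets the groups stood apart by many times the spread of their duplicates. The gap between the falls of the 2 probe sets was -1.26 ± 0.18 on the log2 scale. It did not pass when the same gap was fitted with limma over the 2882 genes with 2 probe sets above the filter (adjusted p = 0.19). That fit, chosen after the values were seen and made without a variance trend, called 0.0347% of those genes. The name of the brightest probe set marks it as able to hit more than 1 transcript. The other 2 Hnf4a probe sets lay below the filter. One read 40.8 and 106 with vehicle against 48.1 and 34.3 with imatinib and was the single probe set of the 16 whose groups overlapped, and the last read 50.1 and 50.7 against 28.9 and 22.9. Hnf4aos, which is transcribed antisense to Hnf4a and has a probe set of its own, read 87.8 and 83.5 with vehicle against 72.3 and 72.4 with imatinib (-0.17 ± 0.25, adjusted p = 0.77 without the filter).

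Hnf4g, the paralogue of Hnf4a that shares its targets in the gut, stayed dim on both probe sets in both groups. Its brighter probe set read 37.1 and 51.7 with vehicle against 26.9 and 34.5 with imatinib (-0.28 ± 0.25, adjusted p = 0.60 without the filter). The dimmer one read 34.8 and 22.2 with vehicle against 1.87 and 4.1 with imatinib (-0.78 ± 0.20, adjusted p = 0.090 over all probe sets without the filter). Imatinib arrays were the lower ones on both, and neither difference passed the test; signals in this range do not allow a statement on Hnf4g beyond that.

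Elf3 and Klf5 were both above the filter in each group. Elf3, the epithelial ETS factor, had signals of 766 and 716 with vehicle against 258 and 308 with imatinib, 2.62 times as high with vehicle (-1.30 ± 0.14, adjusted p = 1.0e-04). Klf5, the factor of proliferating crypt epithelium, had signals of 469 and 535 with vehicle against 117 and 118 with imatinib, 4.27 times as high with vehicle (-1.83 ± 0.17, adjusted p = 3.2e-05). In each gene the lower vehicle array was more than the whole spread of the duplicates above the higher imatinib array. A second Klf5 probe set lay below the filter, with 97.0 and 91.7 against 4.53 and 52.3 (-1.19 ± 0.43, adjusted p = 0.21 without the filter). Its imatinib duplicates were far apart, and it was not called.

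Vdr and Gata6 are the factors of the group that are known from macrophages as well. Vdr, the vitamin D receptor, had signals of 290.3 and 305 with vehicle against 50.1 and 81.9 with imatinib, 4.51 times as high with vehicle (-1.77 ± 0.23, adjusted p = 0.00043). Its other probe set read 189.9 and 253 with vehicle against 64.9 and 30.7 with imatinib (-1.69 ± 0.29, adjusted p = 0.0028 over all probe sets, 0.0385 without the filter). Both Vdr probe sets passed the filter only through the vehicle arrays and had to differ, so the second adds no support to the first. Gata6 had the smallest difference of the tested factors and the least certain one. It read 113 and 161 with vehicle against 41.6 and 66.5 with imatinib, 2.53 times as high with vehicle (-0.97 ± 0.30, adjusted p = 0.0496). Its dimmer probe set read 108 and 66.9 against 49.3 and 41.9 (-0.60 ± 0.30, adjusted p = 0.36 without the filter). Tested over probe sets, the same bright Gata6 probe set missed the threshold (adjusted p = 0.052), which left 9 of the 10 factor probe sets above the filter called lower, where 7.38% of all those tested were called lower and 6.2% higher. Of these 10 probe sets 6 passed the filter only through the vehicle arrays and had to differ, so that this count is no support for a common change either. Gata6 also lost its call when vehicle replicate 1 (adjusted p = 0.072) or imatinib replicate 1 (adjusted p = 0.18) was left out, and dropped under the filter without vehicle replicate 2.

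**Figure D2:**
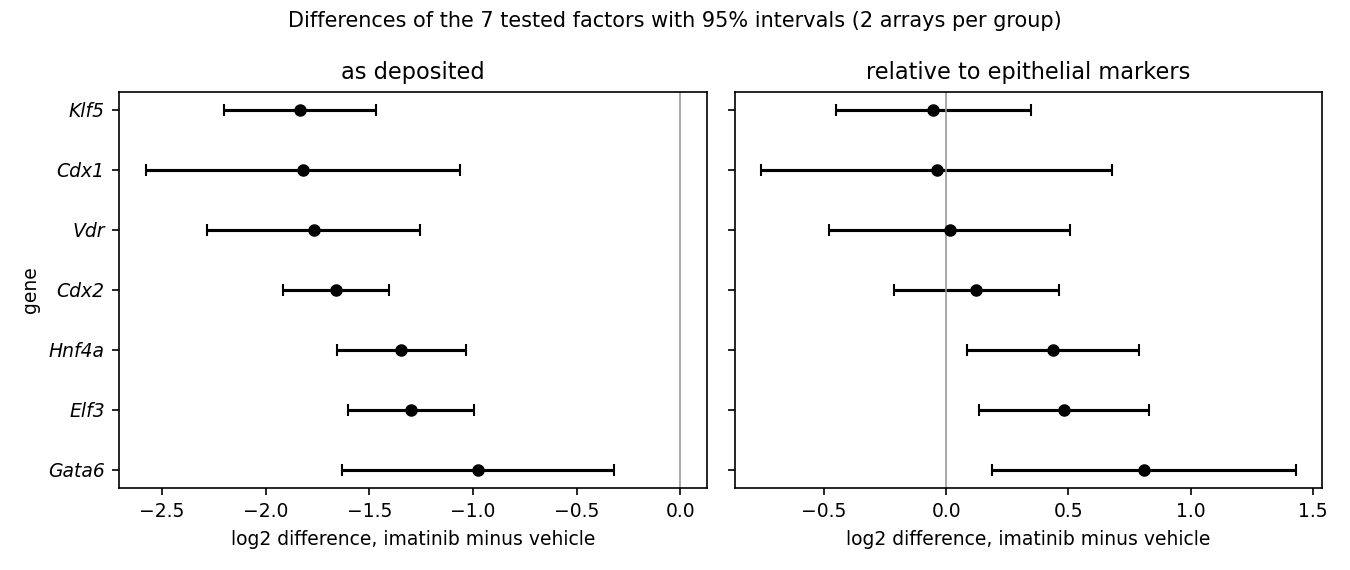
Log2 differences, imatinib minus vehicle, of the 7 tested factors with 95% intervals from limma, on the deposited scale (left) and after the mean of 20 epithelial markers was set equal on all arrays (right). On the left every interval lies below 0, from -1.83 for Klf5 to -0.97 for Gata6; on the right the intervals of Klf5, Cdx1, Vdr and Cdx2 include 0 and those of Hnf4a, Elf3 and Gata6 lie above it.

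With the offset of 32 and the brightest probe set of each gene, the differences ran in order of size from Klf5 (-1.83) over Cdx1 (-1.82), Vdr (-1.77), Cdx2 (-1.66), Hnf4a (-1.35) and Elf3 (-1.30) to Gata6 (-0.97). None of the 6 gaps between neighbours in that order exceeded its error at 95% confidence, errors of the genes being taken as independent. Of all 21 pairs, the interval of the gap was above 0 for 3, namely Klf5 against Hnf4a (0.49, 95% interval 0.0077 to 0.97), Elf3 (0.54, 0.059 to 1.01) and Gata6 (0.86, 0.11 to 1.61); these intervals were not adjusted for the number of pairs. The order depended on both choices. With an offset of 1 it began with Cdx1 (-3.07), Vdr (-2.20) and Klf5 (-2.08), and with an offset of 100 with Cdx2 (-1.49) and Klf5 (-1.47). Without probe sets able to hit several transcripts Hnf4a had the largest difference (-2.61), and Klf5 had no test. Among the 8156 tested genes, 94 had a larger fall than Klf5, 125 a larger fall than Cdx2, 206 than Hnf4a and 365 than Gata6.

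RefSeq promoter windows (GRCm38.p6) are shown for Elf3, Cdx2, Vdr and both start sites of Hnf4a. No window was given for Hnf4g or Klf5, and windows of Cdx1 and Gata6 were not looked for. Each run is the 250 bases before the start site, 5′ to 3′ on the gene's strand. Capitals mark matches on either strand to the core letters of sites for gut factors: TTTATG for CDX factors, CAAAGTCCA for HNF4 factors, AGATAA for the family of GATA factors, GGAAGT for the ETS family, GGGCGG for the GC box read by KLF and Sp factors, and GTTAAT for HNF1. The HNF1 letters were added after the windows had been read.
Hnf4a upstream start, chr2:163506607-163506856, plus strand: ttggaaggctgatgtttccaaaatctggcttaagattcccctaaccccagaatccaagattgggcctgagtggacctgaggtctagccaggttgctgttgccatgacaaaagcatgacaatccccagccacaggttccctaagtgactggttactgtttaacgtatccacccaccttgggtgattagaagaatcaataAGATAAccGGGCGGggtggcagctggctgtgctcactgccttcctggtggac
Hnf4a downstream start, chr2:163546905-163547154, plus strand: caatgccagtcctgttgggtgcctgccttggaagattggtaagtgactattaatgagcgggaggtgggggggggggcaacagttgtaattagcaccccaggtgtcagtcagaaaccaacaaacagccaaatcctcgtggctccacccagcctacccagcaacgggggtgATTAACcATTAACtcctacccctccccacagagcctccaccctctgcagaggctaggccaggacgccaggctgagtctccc
Cdx2, chr5:147307250-147307499, minus strand: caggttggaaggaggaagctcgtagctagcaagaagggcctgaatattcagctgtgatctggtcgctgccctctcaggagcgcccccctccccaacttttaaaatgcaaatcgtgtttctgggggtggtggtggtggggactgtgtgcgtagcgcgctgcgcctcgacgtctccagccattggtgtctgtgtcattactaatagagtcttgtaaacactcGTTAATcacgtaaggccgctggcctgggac
Elf3, chr1:135258473-135258722, minus strand: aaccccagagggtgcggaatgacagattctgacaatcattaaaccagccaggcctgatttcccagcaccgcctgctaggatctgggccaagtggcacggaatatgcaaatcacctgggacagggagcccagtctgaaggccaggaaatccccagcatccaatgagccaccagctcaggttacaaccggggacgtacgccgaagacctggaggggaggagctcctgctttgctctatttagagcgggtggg
Vdr, chr15:97908297-97908546, minus strand: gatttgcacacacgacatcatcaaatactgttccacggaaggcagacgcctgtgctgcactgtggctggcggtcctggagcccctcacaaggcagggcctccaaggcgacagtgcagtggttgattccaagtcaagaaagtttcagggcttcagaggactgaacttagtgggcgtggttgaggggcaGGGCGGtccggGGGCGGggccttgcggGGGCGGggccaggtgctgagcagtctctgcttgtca

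The 2 start sites of Hnf4a differ in these letters: the upstream window holds 1 GATA match and 1 GC box, and the downstream window 2 HNF1 half-site matches. Cdx2 has 1 HNF1 half-site match, Vdr 3 GC boxes and Elf3 no match. Over all 32851 windows of this length in the table, 10.8% hold the CDX letters, 0.384% the HNF4 letters, 9.99% the GATA letters, 19.7% the ETS letters, 32.7% the GC box and 6.43% the HNF1 letters. The GC content was 51.2% and 57.6% for Hnf4a, 55.2% for Cdx2, 57.2% for Elf3 and 61.2% for Vdr, against a median of 52.4%. A match is a description of the sequence and does not show binding, and a search for exact letters can miss a site. Probe sets were not assigned to either Hnf4a start site.

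Epithelial transcripts as a whole were lower on the same arrays, which raises the question of whether the factors differed from them. The 20 tested epithelial markers had differences from -2.89 for the keratin gene Krt19 to -0.22, with a median of -1.99, and 17 of them were lower; Dsp, a desmosome gene (-2.65), Tspan8, a tetraspanin gene (-2.50), and Epcam, an epithelial adhesion gene (-2.42), followed Krt19. When the mean of the 20 markers, which differed by -1.78, was set equal on all arrays, 97.5% of all genes became higher and 0.466% lower, since nearly all genes fell less than epithelial markers did. Of the 20 markers themselves, 6 were higher and 7 lower on that scale, so a call there does not set a gene apart from epithelial markers. None of the 7 factors was lower on that scale and 3 were higher, namely Hnf4a (0.44 ± 0.18, adjusted p = 0.016), Elf3 (0.48 ± 0.18, adjusted p = 0.0067) and Gata6 (0.81 ± 0.32, adjusted p = 0.011). With nearly all genes called there, adjustment scarcely changed the limma p-values (0.015 unadjusted for Hnf4a). The errors leave out that of the marker mean. Intervals of that fit match unlimited degrees of freedom, so each gene's variance came from the trend over all genes. Cdx1 (-0.04, 95% interval -0.76 to 0.68), Cdx2 (0.12, -0.22 to 0.46), Klf5 (-0.05, -0.45 to 0.35) and Vdr (0.01, -0.48 to 0.51) did not pass; their intervals do not show that they moved exactly as the markers did. Without vehicle replicate 2 none of the 3 was called (Hnf4a adjusted p = 0.069 and Elf3 adjusted p = 0.085, with Gata6 not tested), and Gata6 also lost its call without vehicle replicate 1 (adjusted p = 0.15) or imatinib replicate 2 (adjusted p = 0.068). Hnf4a (adjusted p = 0.094) and Elf3 (adjusted p = 0.054) lost their calls without the filter, Hnf4a also with the mean of its probe sets (adjusted p = 0.053), and Gata6 with an offset of 1 (adjusted p = 0.19). Cdx2 became higher than the markers with a filter at the 60th percentile (0.32, adjusted p = 0.033), and Cdx1 with an offset of 100 (0.52, adjusted p = 0.015). For Hnf4a the sign itself turned when probe sets able to hit several transcripts were left out, so that its second probe set stood for the gene (-0.95, adjusted p = 8.9e-05, lower than the markers).

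Macrophage markers moved the other way: 12 of 17 were higher and none lower, with a median of 0.39, among them the engulfment receptor gene Mertk (1.16), the integrin gene Itgam (0.97), the lysozyme gene Lyz2 (0.86) and the Fc receptor gene Fcgr3 (0.69). Itgam had a vehicle mean of 76.3, under the filter, so it entered only through the imatinib arrays and had to differ. It lost its call without the filter (adjusted p = 0.081). When the mean of the macrophage markers was set equal on all arrays, which lowers each difference by 0.46, all 7 tested factors were still lower, from -2.30 for Klf5 to -1.44 for Gata6, but so were 63.3% of all genes. Large peritoneal macrophages are known to depend on Gata6. Of 14 of their genes on the array 9 lay below the filter, including Rarb, F5, Prg4, Alox15 and Serpinb2, and of the 5 tested only Saa3 was lower (-1.71 ± 0.12), an acute-phase gene that epithelium also makes. Cav1, Thbs1, Icam2 and Lrg1 were the others tested, and the part of such cells in the Gata6 result was not tested. Their summed signal was 2677 and 2830 with vehicle against 1697 and 1910 with imatinib, of which Saa3 alone made 1319 and 1331 against 352 and 415.

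**Figure D3:**
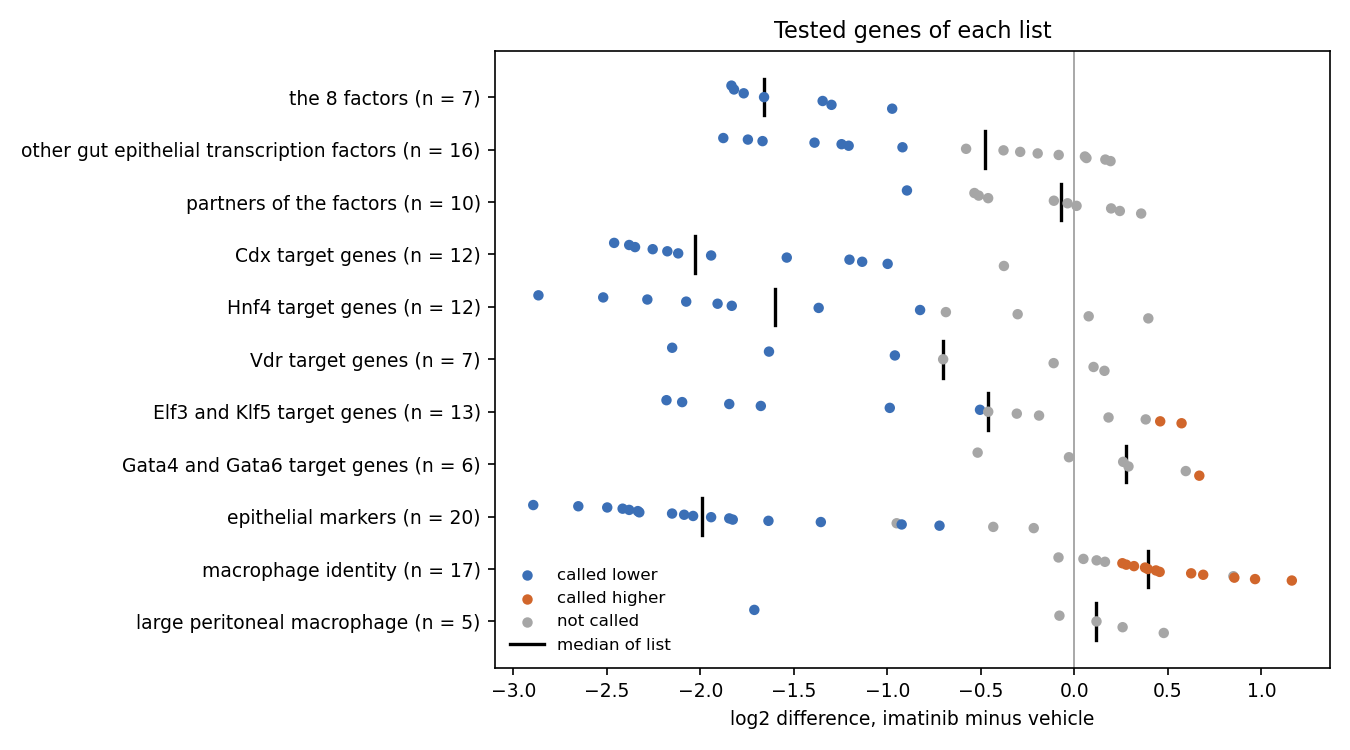
Log2 differences, imatinib minus vehicle, of the tested genes of each list, coloured by call, with a bar at each list's median. The factors lie between -1.83 and -0.97, within the range of the epithelial markers (-2.89 to -0.22) and apart from the macrophage identity genes (-0.09 to 1.16).

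Other transcription factors of gut epithelium fell in part. Of 42 listed, 35 were on the array, 16 passed the filter and 7 were lower, none higher, with a median of -0.48. Of the lower ones, Myb, Tfcp2l1, Nr1h4, Grhl2 and Atoh1 had imatinib means under the filter. They entered only through the vehicle arrays and had to differ, so the count of 7 is no support for a common change. Myb, a factor of dividing crypt cells, read 228 and 240.2 with vehicle against 51.5 and 30.9 with imatinib (-1.88 ± 0.26, adjusted p = 6.0e-04). Tfcp2l1, an epithelial grainyhead-like factor (-1.75), the bile acid receptor gene Nr1h4 (-1.67) and the pioneer factor gene Foxa1 (-1.39) fell too, which places them in the range of the 7 factors. Foxa2 (-1.25), the epithelial junction regulator Grhl2 (-1.21) and the secretory lineage factor Atoh1 (-0.92) were the others, and Atoh1 lost its call without the filter (adjusted p = 0.12). Klf4, a relative of Klf5 that macrophages also express, read 4362 and 4408 with vehicle against 5248 and 4615 with imatinib and did not pass (0.17 ± 0.09, adjusted p = 0.24; -0.30 with macrophage markers set equal). Gata4, the relative of Gata6 in small intestine, lay below the filter with 64.8 and 77.3 against 66.3 and 106.7, its groups overlapping. The other 19 on the array lay below the filter, so the median describes only a part of the list.

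Of 17 genes of partner proteins on the array 10 were tested, 1 was lower and none higher, a share near that over all genes, with a median of -0.07 (0.09 with array medians set equal). With macrophage markers set equal, 7 of the 10 were lower, near the 63.3% of all genes that were lower on that scale. Rxra, the obligate partner of Vdr, read 288 and 239 with vehicle against 309 and 324 with imatinib (0.24 ± 0.16, adjusted p = 0.36, and -0.22 with macrophage markers set equal). Rxrb had a difference of 0.20 (adjusted p = 0.34, and -0.27 with macrophage markers set equal). Nr2f2, an orphan receptor that binds Hnf4 sites and is also made by stromal cells, was the 1 that fell (-0.90 ± 0.27, adjusted p = 0.047), a call that was lost without the filter (adjusted p = 0.093). Its imatinib mean of 57.6 was under the filter, so it entered only through the vehicle arrays and had to differ. Of 12 tested fibroblast markers 7 were lower, with a median of -0.95, and their part in the Nr2f2 result was not tested.

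Genes listed as targets of Cdx factors were nearly all lower. Of 17 on the array 12 were tested and 11 were lower, with a median of -2.03, against -0.02 over all genes. The desmosomal cadherin gene Dsc2 (672 and 733 to 110.3 and 92.7, -2.46 ± 0.16), the galectin gene Lgals4 (-2.38), the carbonic anhydrase gene Car1 (10623 and 11186 to 2098 and 2128, -2.35 ± 0.08) and the brush border protease gene Mep1b (-2.26) fell most. Mep1b, Heph and Slc5a1 had imatinib means under the filter, so they entered only through the vehicle arrays and had to differ. The list shares Cdh17 and Lgals4 with the epithelial markers, and the 2 lists had like medians, so the targets cannot be set apart from epithelial transcripts in general. Among Hnf4 targets 12 of 22 were tested, 8 were lower and none higher (median -1.60). Of the lower ones, Ttr, Slc27a2, Apob, Cps1 and Tm4sf20 had imatinib means under the filter. They entered only through the vehicle arrays and had to differ, so the count of 8 is no support for a common change. The thyroid hormone carrier gene Ttr (-2.87), the drug-metabolising enzyme gene Cyp2c65 (-2.52), the fatty acid binding protein gene Fabp2 (-2.28) and the fatty acid transporter gene Slc27a2 (-2.08) fell most. Apob, the gene of an apolipoprotein of lipid particles, fell as well (353 and 352 with vehicle against 76.9 and 64.5 with imatinib, -1.91). Other Hnf4 targets of lipid transport, Apoa1, Apoa4, Apoc3, Mttp and Fabp1, were among the 10 below the filter; Apoa1, for example, read 35.5 and 26.7 with vehicle against 38.4 and 52.0 with imatinib.

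Targets of the other factors were mixed. Of 7 tested Vdr targets 3 were lower (median -0.70): the steroid hydroxylase gene Cyp3a13 (-2.15), the efflux pump gene Abcb1a (-1.63) and the pore-forming claudin gene Cldn2 (-0.96). Cldn2 had an imatinib mean of 74.3, under the filter, so it entered only through the vehicle arrays and had to differ. Cyp24a1, the vitamin D hydroxylase gene that responds most directly to Vdr, was dim on every array, with 38.1 and 44.4 against 38.7 and 57.7. S100g, the intestinal calcium-binding protein gene induced by vitamin D, lay below the filter over all arrays but read 111 and 154 with vehicle against 5.84 and 2.44 with imatinib (-2.18, adjusted p = 0.0051 without the filter). Elf3 and Klf5 targets moved both ways, with 6 lower and 2 higher of 13 tested (median -0.46). The cell adhesion gene Ceacam1 (-2.18), the chemokine gene Ccl20 (-2.10), the E-cadherin gene Cdh1 (-1.85) and Fgfbp1, a growth factor carrier gene (-1.68), fell. Ccl20 and Fgfbp1 had imatinib means under the filter and had to differ. Tgfbr2, a receptor gene that Elf3 activates in epithelium, rose (0.46), as did the kinase gene Pim1 (0.57); both are known from leukocytes, and with macrophage markers set equal they stood at -0.01 and 0.11. Of 6 tested Gata4 and Gata6 targets none was lower, and the endocytic adaptor gene Dab2, which macrophages also express, was higher (0.67, or 0.20 with macrophage markers set equal).

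Markers of several epithelial cell types passed the filter on these arrays. Of 10 tested genes of enterocytes and colonocytes 9 were lower (median -2.01). The chloride exchanger gene Slc26a3 of colonocytes read 742 and 595 with vehicle against 152 and 157 with imatinib, and the water channel gene Aqp8 read 615 and 649.8 against 260.4 and 277. All 8 tested goblet cell genes were lower (median -1.28), among them the mucin gene Muc13 (-2.18), Spink4 (-1.65), Zg16 (-1.40) and Retnlb (-1.35). Of 4 tested genes of stem and dividing epithelium Prom1 (-2.47) and Cdca7 (-0.96) were lower, and the stem cell genes Lgr5 and Ascl2 were below the filter. Among Paneth cell genes Reg3g fell (-2.10), while Lyz1 rose (0.37, or -0.10 with macrophage markers set equal); its probe set may share sequence with the macrophage gene Lyz2, so its source is uncertain. Of 3 tested enteroendocrine genes Sct (-1.45) and Scg5 (-1.15) were lower. Reg3g and Sct passed the filter only through the vehicle arrays and had to differ. Smooth muscle, another source of Gata6, had Acta2 lower (-0.82) among 3 tested genes, and the mesothelial genes Msln, Upk3b and Wt1 were below the filter. Kit, Edn3 and Elovl6 were the 3 lower of 6 genes of GIST and interstitial cells of Cajal (median -0.44). Edn3, with an imatinib mean of 82.4, likewise passed the filter only through the vehicle arrays. Endothelial (0 of 7) and T cell genes (0 of 7) were not called in limma, with 0 of either list at an unadjusted p under 0.05, whereas with macrophage markers set equal 3 of the 7 endothelial and 5 of the 7 T cell genes were lower. On that scale 63.3% of all genes were lower, so these counts do not set the 2 lists apart. Of 4 B cell genes Cd22 (0.84) and Cd79b (0.38, or -0.09 with macrophage markers set equal) were higher.

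The genes whose values over the 4 arrays ran closest to those of each factor were sought by Euclidean distance between log2 values after each gene's mean was removed, over 8062 other tested genes. Cdx2 ran closest to Spink4, a goblet cell gene (distance 0.014; 4457 and 4449 with vehicle against 1395 and 1392 with imatinib), and to Fgfbp1 (0.038). Hnf4a ran closest to the microvillus gene Vil1 (0.053) and the epithelial adaptor gene Ap1m2 (0.069), and Elf3 to Tcf7l1 (0.064) and Vil1 (0.076). Klf5 was nearest to the collagen receptor gene Ddr1 (0.092) and Emp1 (0.11), Vdr to Tfcp2l1 (0.085) and Tm4sf20 (0.091), Cdx1 to the sulfotransferase genes Sult1c2 (0.14) and Sult1d1 (0.17), and Gata6 to the brush border myosin gene Myo7b (0.077) and Phldb2 (0.15). All of these genes were called lower. Between the factors themselves the shortest distance was that of Hnf4a and Elf3 (0.11), followed by Cdx1 and Vdr (0.175) and by Cdx2 and Klf5 (0.22). With 4 arrays such distances rest mostly on the size of the group difference and describe these arrays only.

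**Figure D4:**
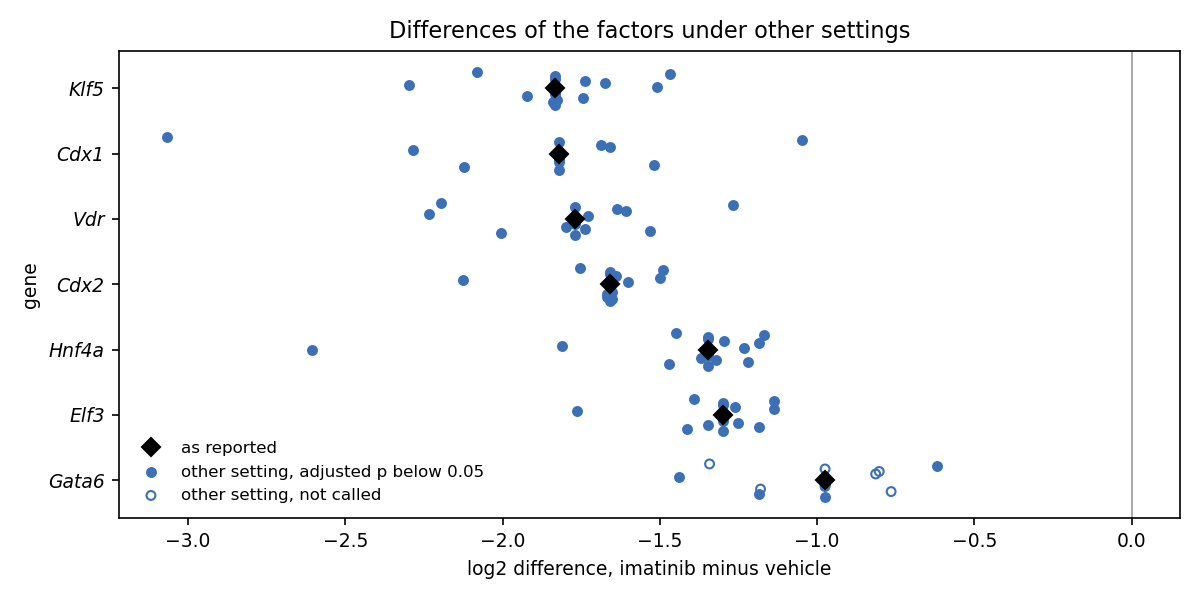
Log2 difference of each tested factor as reported (diamond) and under the other settings tried (circles; open where the adjusted p was 0.05 or above). All values are below 0, and open circles appear for Gata6 alone; the far-left circle of Hnf4a is the setting in which its second probe set stands for the gene, at -2.61.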

How the data were processed

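Per the submitters' processing notes, the authors used Affymetrix Expression Console with MAS5, and the deposited values are its linear signal intensities. Neither tool's version nor the scaling settings were stated in these sources. Background subtraction by MAS5 makes dim values noisy, and precision is limited by the small number of arrays. Probe sets with 1 symbol in the platform annotation were used (20380 of 22626; 20351 matched RefSeq GRCm38.p6 by Entrez ID). Signals were transformed as log2(signal + 32); a gene was its brightest probe set, filtered at the 40th percentile; limma with a mean-variance trend was fitted to all genes, two-sided. Errors are SE for differences. On simulated arrays with 8156 genes it called 60 of 100 genes changed by 0.5 and 100 of 100 changed by 1.5 (log2), and 3 unchanged ones. The factors, the 22 other lists and the tests were chosen with earlier results of these data known. Named genes are the factors, up to 4 called members per list (or 2 bright ones) and 2 nearest genes per factor; Foxa2, Grhl2, Atoh1, Klf4, Gata4, Hnf4aos, Apob, Cav1, Thbs1, Icam2, Lrg1, S100g, Cyp24a1, Tgfbr2, Pim1, Slc26a3, Aqp8 and the genes named as below the filter were chosen after their values were seen. Tools were R 4.3.3, limma 3.58.1, Python 3.11.15, pandas 2.3.3, numpy 2.4.6 and matplotlib 3.10.9.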

Additional observations from a re-analysis of the deposited data

How the results depend on the processing

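Some alternatives alter only the test and leave each difference as it was, so that its sign could not turn. These were no filter, the filter at the 60th percentile, no variance trend, a robust prior, and the replicate block or its crossed form. Over 17 alternatives, these included, the 111 differences of the tested factors all kept their sign. In 103 of them the side of the threshold was also kept; the other 8 were all of Gata6, which lost its call with a pseudocount of 1 (adjusted p = 0.060), without the filter (0.11), with quantile normalization (0.10), with equal array medians (0.062), without the variance trend (0.054), with the replicate block (0.067) and without vehicle replicate 1 (0.072) or imatinib replicate 1 (0.18). The count of factors called lower was 4 with a filter at the 60th percentile, where only 4 were tested, and that of probe sets 5 of 5 tested. There 9.44% of all tested genes were called lower. Leaving out single arrays, with a lone array assumed to vary like the others, left all differences below 0. They ran from -1.67 to -1.65 for Cdx2, -1.47 to -1.22 for Hnf4a, -1.41 to -1.18 for Elf3 and -1.92 to -1.75 for Klf5. For Vdr they ran from -2.00 to -1.53, for Cdx1 from -2.12 to -1.52 and for Gata6 from -1.18 to -0.76, where tested.

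Over all genes, 550 were higher and 722 lower. The higher count was 356 without the filter, 1044 with equal array medians (against 506 lower), 100 with equal macrophage markers (against 5165 lower), 196 without the variance trend and 308 to 467 without single arrays. Same-numbered arrays deviated in opposite directions (r = -0.13 across genes), so the numbers are not shown to pair the arrays. The replicate block gave 421 higher and 634 lower genes, and a crossed pairing, chosen after seeing the data, 880 higher and 1095 lower.

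Relative to epithelial markers, results near 0 changed sign: Vdr (-0.25 with a pseudocount of 1, -0.13 without the filter, -0.074 with the mean of probe sets, -0.11 without probe sets able to hit several transcripts, -0.13 to 0.16 without single arrays), Klf5 (0.11 with a pseudocount of 100, 0.15 at the 60th percentile, 0.15 with the mean of probe sets, -0.16 to 0.030 without single arrays), Cdx1 (0.52 with a pseudocount of 100, -0.25 to 0.18 without single arrays) and Cdx2 (-0.024 without the filter, -1.5e-05 without probe sets able to hit several transcripts). Hnf4a stood at -0.95 in that last setting, the 1 factor then called lower. The count of factors higher than the markers, 3 as reported, was 1 with the mean of probe sets, 2 without the filter, with a pseudocount of 1 and without probe sets able to hit several transcripts, 4 with a pseudocount of 100 and 0 to 3 without single arrays. The 2 called without the filter were Gata6 (0.66, adjusted p = 0.046) and the dim Hnf4g (1.35, adjusted p = 0.00061), which had no test with the filter. The cause of these changes in sign and count was not tested.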
